A study of Mus musculus with 44 samples.

Results

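The 9 genes described here encode the ATPases and core subunits of the BAF chromatin remodelling complex and its ARID1 subunits: Smarca4, Smarca2, Smarcc1, Smarcb1, Smarcd1, Smarcd3, Smarce1, Arid1a and Arid1b. They are 9 of 20661 protein-coding genes in the mouse annotation. Every accessible site that touched the gene body of a member on build mm10, extended by 50 kb on each side, was taken and given to the nearest member, which gave 335 of the 183089 sites of the series. Of these, 9 were the members' promoter sites, 17 lay at other annotated starts of the members, 35 at starts of other genes, 151 within a member's gene body and 123 in the flanks. The lists of the other subunits of BAF and its relatives, PBAF and GBAF, held 22 genes and 626 sites.

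BAF uses the energy of ATP to slide or evict nucleosomes and so opens regulatory DNA. Smarca4 (BRG1) and Smarca2 (BRM) are alternative ATPases, Smarcc1 (BAF155) and Smarcc2 (BAF170) are paralogous scaffold subunits, and Smarcb1, Smarcd1, Smarcd3 and Smarce1 complete the core. Arid1a and Arid1b are the alternative ARID subunits of canonical BAF, Arid2 is their counterpart in PBAF, and neurons are known for assembling subunit combinations of their own.

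Open chromatin was measured by ATAC-seq, which reads where a transposase can insert into DNA, in cortical neurons taken from mice at embryonic day 16.5 and grown in culture. The 44 libraries formed 22 groups of 2. All wells, controls included, had been silenced overnight with 1 µM tetrodotoxin (a sodium channel blocker) and 100 µM D-AP5 (an NMDA receptor blocker), and were unstimulated or depolarised with 50 mM KCl. In the drug experiment (16 libraries, day 7 in vitro, DIV7) wild-type neurons received 100 nM FHT1015, an inhibitor of the SMARCA4 and SMARCA2 ATPases, or 0.1% DMSO for 10 or 30 min, each with and without KCl. In the Arid2 experiment (8 libraries, DIV7) neurons with a non-targeting guide RNA (NT) were set beside Arid2 knockout neurons, unstimulated or after 30 min of KCl. In the Smarcc2 experiment (20 libraries, DIV18) the genotypes were NT, Smarcc2 knockout with vector, and Smarcc2 knockout with wild-type (WT), S586A or S586E Smarcc2 added back, again unstimulated or after 30 min of KCl. The labels call the cortex of one embryo a biological replicate but tie no library to an embryo, so p-values measure only the spread between these libraries.

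The deposited lists held 135590 to 282440 peak intervals and 182229 to 397885 summits per library, and read counts were not used here. A site was therefore followed by the rank of its strongest summit among all autosomal summits of the library, rank 1 being the strongest. The rank score is log2(100000/rank), held at 0 for a summit outside the top 100000 or for no summit, so a difference of +1 means that the rank number was divided by 2. A rank is relative: a site can lose places because others gain them, and in bulk lists fewer cells with an open site and less opening per cell cannot be told apart. Changes were tested with limma across all sites held by at least 2 libraries of an experiment, and a site was called at an adjusted p under 0.05 (Benjamini-Hochberg).

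Libraries differed in list length in ways that ran with the groups. All 8 FHT1015 libraries had fewer autosomal intervals (143439 to 217724) than all 8 DMSO libraries (227122 to 276666). The 4 Smarcc2 knockout libraries with vector (165089 to 215071 intervals on all chromosomes) had fewer than the 4 NT libraries (216877 to 266049). Promoters of 6 pan-neuronal marker genes were accessible in every experiment, with summed rank scores of 18.8 to 22.5, 22.4 to 23.9 and 17.7 to 24.3 in the drug, Arid2 and Smarcc2 libraries. Neural progenitor promoters summed to 11.2 to 13.7 in the drug libraries, 2.11 to 4.46 in the Arid2 libraries and 4.51 to 7.43 in the Smarcc2 libraries, so absolute levels are compared within experiments. The lists do not test the edits: 4 to 8 summits lay in the Smarcc2 gene body in NT and 4 to 10 in knockout libraries with vector. Libraries with an add-back held 29 to 36 summits there. In the Arid2 gene body the counts were 5 to 8 in NT and 7 to 9 in Arid2 knockout libraries.

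The members' 9 loci held 250 to 525 intervals per library, with a median of 396.5. By gene the sites numbered 40 for Smarca4, 33 for Smarca2, 36 for Smarcc1, 29 for Smarcb1, 28 for Smarcd1, 33 for Smarcd3, 14 for Smarce1, 37 for Arid1a and 85 for Arid1b, whose gene body is also the longest of the 9. Of the 335 sites, 63 were held in the top 100000 of all 44 libraries. The gene bodies on mm10 are chr9:21616106-21704230 (Smarca4, plus strand), chr19:26605073-26778321 (Smarca2, plus), chr9:110132024-110240178 (Smarcc1, plus), chr10:75896769-75921614 (Smarcb1, minus), chr15:99702287-99713995 (Smarcd1, plus) and chr5:24592622-24624456 (Smarcd3, minus). Those of Smarce1 (strand not given), Arid1a (minus) and Arid1b (plus) are chr11:99209047-99231017, chr4:133679008-133756769 and chr17:4994297-5347656. The table used here gives gene bodies only, so sites within them are not assigned to exons, introns or UTRs. Distances are from the gene's 5′ end, positive into and beyond the gene. For Smarce1 the gene end with the site of higher mean score was taken as the 5′ end.

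The promoters came first because every comparison reads them. The stretches of 250 bases that end just before the RefSeq starts of the 2 ATPases and of Smarcc1 are shown. Their promoter sites, 500 bp windows, cover them entirely, as is also so for Smarcb1 and Smarcd1, which are not shown. The stretches are given 5′ to 3′ on the gene's strand (GRCm38.p6, the assembly of mm10). Capitals mark GC boxes (GGGCGG on either strand), which bind SP-family factors, and ETS cores (CCGGAAG on either strand).
Smarca4, chr9:21615919-21616168, plus strand: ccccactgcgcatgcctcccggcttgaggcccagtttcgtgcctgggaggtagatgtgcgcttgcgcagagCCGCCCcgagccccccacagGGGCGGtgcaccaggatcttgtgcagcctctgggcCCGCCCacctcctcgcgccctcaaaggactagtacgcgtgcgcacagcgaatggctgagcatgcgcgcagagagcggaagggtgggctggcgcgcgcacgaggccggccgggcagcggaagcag
Smarca2, chr19:26604910-26605159, plus strand: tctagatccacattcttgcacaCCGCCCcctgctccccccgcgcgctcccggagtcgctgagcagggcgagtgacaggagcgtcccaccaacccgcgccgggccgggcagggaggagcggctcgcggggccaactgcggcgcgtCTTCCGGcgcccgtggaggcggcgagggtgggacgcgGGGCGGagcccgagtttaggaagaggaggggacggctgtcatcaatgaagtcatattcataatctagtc
Smarcc1, chr9:110131774-110132023, plus strand: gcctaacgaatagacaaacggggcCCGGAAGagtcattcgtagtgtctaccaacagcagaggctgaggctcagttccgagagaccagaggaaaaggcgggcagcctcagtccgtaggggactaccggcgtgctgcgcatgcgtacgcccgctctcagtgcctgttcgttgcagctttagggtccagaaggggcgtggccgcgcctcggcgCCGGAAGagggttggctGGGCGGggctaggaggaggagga
Smarca4 carried 3 GC boxes and no ETS core, Smarca2 carried 2 GC boxes and 1 ETS core, and Smarcc1 carried 1 GC box and 2 ETS cores, the nearer of them 40 bases before the start.

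RefSeq promoters were matched for 8 of the 9 members, with 2 entries for Arid1a. The RefSeq start of Smarcd3 lies at the site 22.45 kb into the gene. Its promoter site, used for ranks below, is at the 5′ end of the gene body, so its motifs and ranks describe different places. The same holds for Arid1b, whose RefSeq stretch (chr17:4994824-4995073) lies in the site 0.69 kb into the gene, outside its promoter site (chr17:4994083-4994582). The second Arid1a entry starts in the site 2.82 kb into that gene. A GC box stood in the 250 bases of all 8, against 32.7% of 32851 promoters. An ETS core stood in 2 (Smarca2 and Smarcc1), against 6.91% of promoters. The AP-1 motif TGANTCA, the site of activity-induced FOS and JUN proteins, stood in 1 (Smarcb1), against 6.75%. None held the cAMP response element TGACGTCA (1.55% of promoters), CCAAT (33.8%), the E-box CACGTG (6.02%) or TATAAA (12.4%). The motifs were searched on both strands, no GC box and ETS core share letters in the sequences shown, and a match describes letters rather than a bound factor. The GC content was 70.8% in Smarca4, 68.4% in Smarca2 and 63.6% in Smarcc1, against a median of 52.4% over all promoters. These stretches held 25, 28 and 21 CpG dinucleotides, against a median of 6.

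The 9 promoters differed widely in rank and kept much of one order across the libraries. The Smarca2 promoter (chr19:26604699-26605198) stood at rank 70 at best, 218 at the median and 977 at worst, with a mean rank score of 8.73 ± 0.97 (SD, n = 44). The site also holds an annotated start of Gm52395. Its mean was above the promoter means of 99.0% of 13331 genes with a promoter site. The Smarca4 promoter (chr9:21615822-21616321) stood between ranks 1021 and 5014, with a mean score of 5.20 ± 0.57 (SD, n = 44), above 85.7% of genes. Smarca2 outranked Smarca4 in all 44 libraries, by 3.54 on the rank score.

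Below the ATPases came Arid1a at 4.88 ± 0.34 and the scaffold gene Smarcc1 at 4.67 ± 0.38 (SD, n = 44 each). Smarcd1, an adaptor subunit, followed at 3.80 ± 0.49, and Smarcb1, the subunit also called BAF47 or SNF5, at 3.51 ± 0.21. The HMG-box subunit gene Smarce1 (2.08 ± 0.68), Arid1b (2.02 ± 0.58) and Smarcd3 (1.55 ± 0.71), the adaptor subunit linked to differentiated cells, stood lowest. Neighbours in this order were often not separable: Smarca4 outranked Arid1a in 29 of 44 libraries, Arid1a outranked Smarcc1 in 27, Smarcd1 outranked Smarcb1 in 31 and Smarce1 outranked Arid1b in 27. The other steps were steadier, with Smarcc1 above Smarcd1 in 42 libraries, Smarcb1 above Smarce1 in 44 and Arid1b above Smarcd3 in 40. Outside the promoters, the site with the highest mean score lay at the start of another gene for Smarcc1, Smarcb1, Smarcd1 and Smarcd3. These were starts of Dhx30 for Smarcc1 (4.80), Derl3 for Smarcb1 (5.12), Cox14 for Smarcd1 (6.22) and Abcf2 for Smarcd3 (5.59). For Smarca2, Smarce1, Arid1a and Arid1b it belonged to the gene itself: 0.63 kb before the Smarca2 start (3.38), 0.81 kb into Smarce1 (1.52), 2.32 kb into Arid1a (4.38) and 195.58 kb into Arid1b (3.84). The median fold enrichment that the authors' peak caller gave was 218.8 at Smarca2, 98.3 at Smarca4 and 17.6 at Smarcd3.

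**Figure D1:**
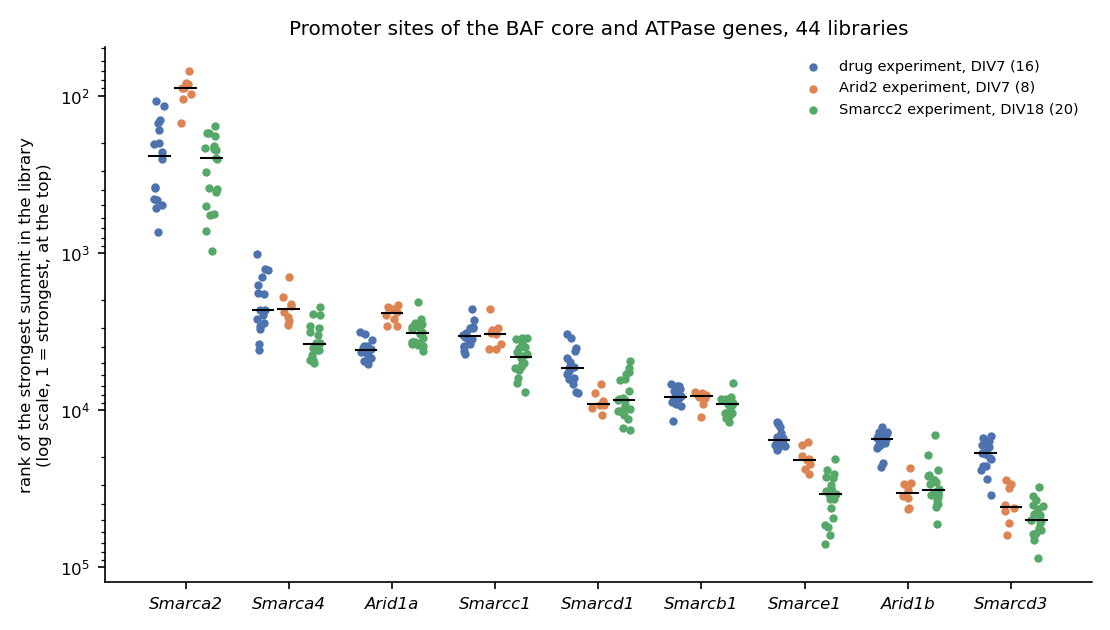
Rank of the strongest summit in the promoter site of each member (vertical axis, log scale, rank 1 at the top) in 44 libraries, by experiment. Points are libraries and black bars are the median ranks. Smarca2 lies between ranks 70 and 977 and outranks Smarca4 in all 44 libraries.

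Over the 22 group means, each centred on its experiment, the promoter most like that of Smarca4 was the one shared by Hspd1 and Hspe1, which encode mitochondrial chaperones (Pearson r = 0.88), followed by Ndufs7, a subunit of respiratory complex I (0.86). For Smarcc1 it was the site shared by Lysmd1 and Scnm1 (0.85), then Utp25 (0.84). These were the highest of 9002 genes compared, the points share libraries and experiments, and the values are descriptions.

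FHT1015 moved the members' sites in both directions. Over 10 and 30 min with and without KCl, 70 of 206 tested member sites rose in rank score and 57 fell, while 25.9% and 36.4% of all 99332 tested sites did. List length ran with the drug, and with it as a covariate 5 member sites were called in place of 127. Of the 9 promoters 7 rose and 1 fell, where 27.9% and 24.0% of promoter sites rose and fell. The 7 that rose were Smarca4, Smarcc1, Smarcd1, Smarcd3, Smarce1, Arid1a and Arid1b, by 0.21 to 0.49, and the 1 that fell was Smarca2. At the RefSeq start 22.45 kb into Smarcd3 the change was +0.08 ± 0.09 (SE) and not called (adjusted p = 0.416). The site 0.69 kb into Arid1b, which holds its RefSeq start, was not called either (+0.24 ± 0.15, limma adjusted p = 0.178). The median change was +0.22 over the 9 promoters and +0.03 over all promoter sites. Of 19 tested promoters of the other subunits, 7 rose and 3 fell. With list length as a covariate none of the 8 promoter changes was called, although all kept their direction.

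The Smarca4 promoter ranks at 30 min without KCl were 2914 and 1796 in DMSO and 1021 and 1277 in FHT1015. Both treated libraries ranked it higher than both controls. The rank score rose by 1.00 ± 0.30 (SE; adjusted p = 0.0162) there and by 0.49 ± 0.15 (adjusted p = 0.0144) over all 16 libraries. The call at 30 min was lost without the first DMSO or the first FHT1015 library of that setting. At 10 min without KCl the DMSO ranks were 1598 and 1436 and the FHT1015 ranks 1282 and 2325, which overlapped (change −0.19 ± 0.30, adjusted p = 0.728).

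A second site 0.60 kb upstream of the Smarca4 start (chr9:21615252-21615751) had a summit of its own in all 8 FHT1015 libraries and in none of the 8 DMSO libraries. Its ranks in FHT1015 were 21810 and 21862 at 10 min, 18427 and 19944 at 30 min, 25238 and 23596 at 10 min with KCl, and 20042 and 20878 at 30 min with KCl. The score difference was 2.23 ± 0.05 (SE, adjusted p = 2.39e-09). The ground itself was inside a peak interval in all 44 libraries, so what differed was whether the caller set a separate summit there. Ranked by intervals, the difference was 0.50. With summits matched within 100 bp of the site's centre it was 0.15 and not called. Outside the drug experiment a summit in the top 100000 stood there in the second replicate, and not the first, of each of the 5 DIV18 groups with KCl, in 1 unstimulated S586E library and in 1 unstimulated Arid2 knockout library.

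The Smarca2 promoter went the other way. Its ranks in DMSO and FHT1015 were 200 and 493 against 457 and 462 at 10 min, and 386 and 381 against 520 and 736 at 30 min. With KCl they were 150 and 143 against 166 and 253 at 10 min, and 108 and 116 against 204 and 228 at 30 min. In 3 of the 4 settings both treated libraries ranked it lower than both controls. The score fell by 0.67 ± 0.18 over all 16 libraries (SE, adjusted p = 0.00836), and none of the 4 settings passed alone. The fold enrichment that the peak caller gave this site did not fall: 168.5 to 213.2 in DMSO and 201.9 to 261.7 in FHT1015. In each of the 4 settings both FHT1015 libraries had higher values than both DMSO libraries. The fall is one of rank among the summits of each library.

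Within the gene bodies and flanks, the members' largest losses with FHT1015 lay away from starts. The site 12.35 kb into Smarcd3 (chr5:24611853-24612352) had ranks of 18732 and 22444 in DMSO at 30 min. In FHT1015 they were 121354 and 112288, outside the top 100000. The score fell by 2.29 ± 0.14 there (SE, adjusted p = 8.67e-07), by 1.62 ± 0.14 at 30 min with KCl and by 1.13 ± 0.14 at 10 min. Over all 16 libraries it fell by 1.39 ± 0.07 (adjusted p = 1.56e-07), and with list length as a covariate by 1.21 (adjusted p = 0.0466). The rank groups did not overlap in any of the 4 settings.

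In Arid1b the site 290.64 kb into the gene (chr17:5284686-5285185) went from ranks 13520 and 18956 to 78432 and 73571 at 30 min. The score fell by 2.25 ± 0.24 (SE, adjusted p = 2.05e-05), a change no longer called with list length as a covariate (−1.73, adjusted p = 0.166). The Arid1b site at 90.09 kb (chr17:5084140-5084639) fell already at 10 min, from ranks 40413 and 41880 to 97570 and 119244 (−1.26 ± 0.11, adjusted p = 4.19e-05). At the site 123.70 kb downstream of the Smarcc1 start, inside Cspg5 (chr9:110255473-110255972), the 10 min ranks were 24054 and 26100 in DMSO and 66724 and 62956 in FHT1015. That was a fall of 1.37 ± 0.15 (adjusted p = 9.64e-05). In each of these the treated pair stood below the control pair. With KCl at 10 min none of these sites was called: Arid1b +290.64 kb had −0.45 ± 0.24, Arid1b +90.09 kb −0.36 ± 0.11 and Smarcc1 +123.70 kb −0.07 ± 0.15. With KCl at 30 min Arid1b +290.64 kb (−0.77 ± 0.24) and Smarcc1 +123.70 kb (−0.54 ± 0.15) were called lower. Arid1b +90.09 kb was not (−0.23 ± 0.11, limma adjusted p = 0.148).

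Over all tested sites 25.9% rose and 36.4% fell. By gene, Arid1b, with the most tested sites, had the most falls, 19 of 41 with 8 rises, and Arid1a the most rises, 15 of 28 with 4 falls. Smarca4 had 8 rises and 3 falls of 17, Smarca2 6 and 4 of 21, and Smarcc1 10 and 5 of 27. Smarcb1 had 3 rises and 6 falls of 20, Smarcd1 7 and 8 of 22, Smarcd3 10 and 8 of 25, and Smarce1 3 and 0 of 5. These tallies are from the fit without list length, and differences between genes in them were not tested.

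Split by time and state, at 10 min without KCl 23 member sites rose and 39 fell (8.88% and 22.2% of all sites), and at 30 min 59 rose and 47 fell (21.0% and 29.2%). With KCl the calls were 5 and 7 at 10 min (1.37% and 4.49%) and 31 and 31 at 30 min (13.6% and 19.9%). Leaving out 1 library brought the 12 calls at 10 min to between 3 and 7. Without the second DMSO library with KCl at 30 min the 62 calls became 34. At 10 min limma called 0 of the 9 member promoters without KCl, where 8.4% of promoter sites rose and 6.48% fell, and 0 with KCl, where 1.29% rose and 4.32% fell. An unadjusted p under 0.05 was reached by 1 promoter in each case. At 30 min 4 rose without KCl (19.0% of promoter sites rose and 14.4% fell) and 2 rose with KCl (13.5% and 18.9%). Beside the Smarca4 and Smarcc1 promoters, those of Smarcd1 (+0.55 ± 0.19) and Smarce1 (+0.55 ± 0.12) rose at 30 min without KCl, and with KCl those of Smarcd3 (+0.52 ± 0.12) and Arid1b (+0.38 ± 0.10) did. Leaving out 1 library ended the Smarcd1 call in 3 of 4 fits (all but the first FHT1015 library) and the Smarcc1 call in 2 (the second DMSO or FHT1015 library). It ended the Arid1b call in 2 (the first DMSO or FHT1015 library) and the Smarcd3 call in 1 (the first DMSO library), and the Smarce1 call in none. Beyond the sites named above, calls with large changes included Smarcd3 −14.80 kb, upstream of the gene, at 30 min with KCl (−1.41 ± 0.16). At 10 min with KCl they included the site 145.64 kb past the Smarcc1 start (+0.74 ± 0.17) and the site 218.16 kb into Arid1b (−0.64 ± 0.13). Both of these calls at 10 min were lost in 3 of 4 fits without 1 library, namely without the first DMSO, the first FHT1015 or the second FHT1015 library with KCl.

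Depolarisation for 30 min in DMSO lowered 49 of 206 member sites and raised 18, against 19.6% and 12.2% of all sites. In FHT1015 it lowered 44 and raised 15, against 12.3% and 9.47%, and without the first or second unstimulated FHT1015 library at 30 min these 59 calls became 38 or 39. The 2 responses use different libraries. The promoter that rose in both was that of Smarca2: in DMSO its ranks went from 386 and 381 to 108 and 116, a rise of 1.78 ± 0.37 (SE, adjusted p = 0.00404). In FHT1015 they went from 520 and 736 to 204 and 228, a rise of 1.52 ± 0.37 (adjusted p = 0.0125). The call in FHT1015 was lost without the second unstimulated library (+1.27) or the first KCl library (+1.44), and the call in DMSO held without any 1 library. The difference between the responses was −0.26 ± 0.52 (adjusted p = 0.768), an error that leaves room for differences in either direction. In each drug arm both KCl libraries ranked above both unstimulated ones. The Arid2 libraries, also at DIV7, did not show this rise at the Smarca2 promoter. Its ranks there were 70 to 150 without and 83 to 97 with 30 min of KCl (+0.18 ± 0.24, adjusted p = 0.742).

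Among the other promoters, Smarcd3 fell with KCl in DMSO (ranks 17122 and 19062 to 34574 and 27594, −0.77 ± 0.12, adjusted p = 0.000843) and in FHT1015 (−0.51 ± 0.12, adjusted p = 0.0112). At the RefSeq start 22.45 kb into Smarcd3 the values were −1.20 ± 0.18 in DMSO (adjusted p = 0.000613) and −0.47 ± 0.18 in FHT1015 (adjusted p = 0.0861). Smarcc1 fell in FHT1015 (−0.46 ± 0.13, adjusted p = 0.0287) and had −0.33 ± 0.13 in DMSO (adjusted p = 0.0803). Its call in FHT1015, like that of Arid1b there, was lost without the second unstimulated library or either KCl library, and that of Smarcd3 in FHT1015 without the second unstimulated or the second KCl library. Arid1b fell in both (−0.56 ± 0.10 and −0.33 ± 0.10), but ranked by intervals its DMSO value was +0.27. The site 0.69 kb into Arid1b, at its RefSeq start, was called in neither (−0.71 ± 0.30 and −0.42 ± 0.30). Promoter sites overall were raised in 16.7% and lowered in 13.7% of tests in DMSO, and in 8.12% and 12.5% in FHT1015.

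Away from the promoters, the site 19.96 kb into Smarcd3 (chr5:24604242-24604741) fell from ranks 13620 and 16926 to 95050 and 86268 in DMSO (−2.58 ± 0.41, adjusted p = 0.000965). In FHT1015 it went from 13084 and 13551 to 66186 and 57510 (−2.21 ± 0.41). Its summits moved more than its intervals, whose ranks gave −0.35 in DMSO, and neither call held with summits matched within 100 bp of the centre (−0.25 and −0.39). At the site 358.76 kb past the Arid1b start the DMSO value was −1.29 ± 0.15. The site 71.91 kb past the Smarcb1 start rose in FHT1015 from ranks 75446 and 86444 to 27952 and 35406 (+1.36 ± 0.20). With DMSO its ranks were 30750 and 44060 without and 21710 and 29980 with KCl, so the FHT1015 libraries stood lower before stimulation.

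The test of whether FHT1015 altered the response to 30 min of KCl called 20 member sites higher and 25 lower, against 13.2% and 10.2% of all sites. The count includes Smarcd3 +12.35 kb (+0.67 ± 0.20), whose score was at its lowest value, 0, in both FHT1015 groups at 30 min. No fall with KCl could be seen there in FHT1015, so that call cannot show whether the response was altered. It reflects the fall in DMSO (−0.67 ± 0.14). No member promoter was called, and 1 had an unadjusted p under 0.05, where 3.1% of promoter sites were higher and 8.45% lower. Among the changes of largest size were those at Arid1b +290.64 kb (+1.48 ± 0.33), at a start of Abcf2 47.49 kb from the Smarcd3 start (−1.44 ± 0.23, adjusted p = 0.00158) and at a site inside Pigv 96.18 kb past the Arid1a start (+1.35 ± 0.21, adjusted p = 0.00134). At the Abcf2 start (chr5:24576714-24577213) KCl took the DMSO ranks from 50420 and 56854 to 24586 and 25276. The FHT1015 ranks were 42401 and 42088 without KCl and 44400 and 64228 with it, so the rise seen in DMSO was not seen there. At the Pigv site (chr4:133660334-133660833) KCl lowered the DMSO ranks from 8940 and 8184 to 18942 and 14256, while in FHT1015 they were 33744 and 41214 before and 25840 and 30372 after. These comparisons share the drug libraries with the FHT1015 and KCl results above.

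**Figure D2:**
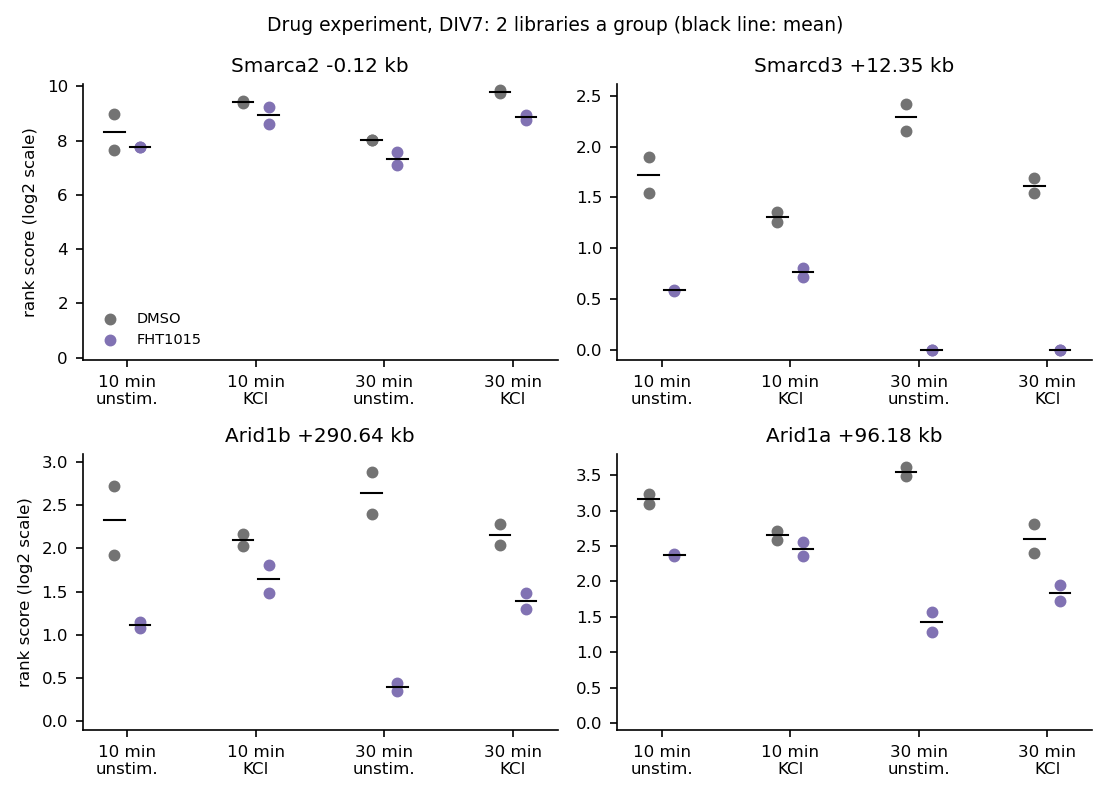
Rank score (vertical axis, log2 units) of 4 member sites in the 16 drug libraries, by time and KCl, with points for libraries and black lines for group means. Smarcd3 +12.35 kb is at 0 in both FHT1015 groups at 30 min. Smarca2 −0.12 kb is the promoter site and rises with KCl in both arms at 30 min.

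In Arid2 knockout neurons limma called 0 of 173 tested member sites, and 8 had an unadjusted p under 0.05. Over all 89956 sites 0.00222% rose and 0.00222% fell. No promoter site of any gene was called (0.0%), and no member promoter had an unadjusted p under 0.05. The member promoters differed between Arid2 knockout and NT by −0.30 to +0.29 in score. A missing call does not mean no change: in these libraries a KCl change of −1.10 ± 0.21 (SE) at Arid1b +90.09 kb was not called (adjusted p = 0.0552). In the same 8 libraries KCl raised 1 of 173 member sites and lowered 0, against 0.596% and 0.126% of all sites. No member promoter was called or had an unadjusted p under 0.05, where 0.418% of promoter sites rose and 0.104% fell. The site was 72.55 kb past the Smarcb1 start (chr10:75848818-75849317): ranks were 94940 and 89116 in NT and 99806 and 104568 in the knockout without KCl. With KCl they were 33252 and 34695 in NT and 36725 and 42948 in the knockout. The change was +1.38 ± 0.22 (SE, adjusted p = 0.0276), and with any 1 of the 8 libraries left out it was no longer called. In the drug libraries, which are separate, the same site rose by 0.59 ± 0.14 in DMSO and 0.60 ± 0.14 in FHT1015.

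Loss of Smarcc2, the paralog of Smarcc1, lowered 13 of 226 tested member sites and raised 6 at DIV18, against 7.3% and 3.51% of all 113733 sites tested. Of the 13 that fell, 9 lay in gene bodies and 4 in flanks. No member promoter was called and 3 had an unadjusted p under 0.05, where 2.55% of promoter sites rose and 0.827% fell. The Smarcc1 promoter ranked 6783 and 4542 in NT and 3462 and 3952 in the knockout without KCl, and 3524 and 5285 in NT and 4588 and 3730 in the knockout with KCl. The knockout pair stood higher without KCl and the pairs overlapped with it. The change of +0.32 ± 0.23 (adjusted p = 0.388) was within the error, so no shift of this promoter beyond the spread was detectable. The other 8 promoters had changes between −1.05 ± 0.42 (Smarca2, adjusted p = 0.128) and +0.47 ± 0.19 (Smarcd3, adjusted p = 0.131). Adding back WT Smarcc2 raised 9 and lowered 6 of the 226 member sites relative to the knockout, against 4.53% and 3.27% of all sites. No promoter was called and 1 had an unadjusted p under 0.05, where 1.13% of promoter sites rose and 2.31% fell. The 19 knockout calls became 12 or 11 without the first or second NT library with KCl. The 15 add-back calls became 7 without the second vector library with KCl, and 6 or 9 without the first or second WT library with KCl. Both comparisons share the 4 knockout libraries with vector.

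The site 27.02 kb into Arid1a (chr4:133729501-133730000) had ranks of 8838 and 7374 in NT and 20972 and 20420 in the knockout without KCl. With KCl they were 10254 and 9796 in NT and 29276 and 28319 in the knockout. All 4 knockout libraries stood below all 4 NT libraries, and the score fell by 1.44 ± 0.16 (SE, adjusted p = 0.000299). With WT Smarcc2 added back the ranks were 6638 and 8734 without and 11766 and 13176 with KCl, higher than the knockout in every library (+1.33 ± 0.16, adjusted p = 0.000524). With S586A they were 8348 and 10399, and 11328 and 10700 with KCl. With S586E they were 14524 and 9333, and 12257 and 9288. No add-back library reached the knockout's range, although S586A and S586E were not tested against the knockout. Both calls held in each of 17 other settings, and with list length as a covariate the values were −1.06 (adjusted p = 0.0188) and +1.08 (adjusted p = 0.0067).

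The same Arid1a site answered to FHT1015 in the separate drug libraries. Its ranks at 30 min without KCl were 4095 and 4330 in DMSO and 18427 and 14073 in FHT1015 (−1.94 ± 0.14, adjusted p = 1.82e-06). With KCl they were 7780 and 8012 in DMSO and 12668 and 11694 in FHT1015 (−0.62 ± 0.14, adjusted p = 0.00481). At 10 min the value was −0.66 ± 0.14 without KCl. In Arid2 knockout libraries it stood at ranks 7686 to 11032, and in their NT libraries at 6819 to 8242.

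In Smarca4 the site 67.97 kb into the gene (chr9:21683827-21684326) ranked 29848 and 16947 in NT and 77918 and 97306 in the knockout, and with KCl 34540 and 28590 against 95869 and 68554. The score fell by 1.66 ± 0.26 (SE, adjusted p = 0.00169), with no overlap. It fell by 0.91 with the top 50000 summits, and the value was −0.63 and not called with summits matched within 100 bp of the centre. WT add-back libraries ranked it at 28214 and 40798, and 48998 and 29639 with KCl (+1.22 ± 0.26, adjusted p = 0.0119). That call was lost with the top 50000 summits (+0.48), with the 100 bp matching (+0.30) and with list length as a covariate (+1.23). S586A and S586E libraries ranked it between 29582 and 51384. At DIV7 it was outside the top 100000 in every library, so this site was held only in DIV18 libraries.

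The Smarca4 promoter itself had −0.10 ± 0.19 (SE) in the knockout, with an adjusted p of 0.799 (limma).

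Of the 25 tested Smarcc1 sites 3 fell and 1 rose in the knockout, where 7.3% of all sites fell and 3.51% rose. The fall of largest size, named after its values were seen, was 111.40 kb past the Smarcc1 start and just beyond the gene (chr9:110243176-110243675). Its ranks were 21887 and 24349 in NT and 52001 and 75586 in the knockout, and with KCl 34933 and 34070 against 75332 and 84579. The change was −1.33 ± 0.21 (SE, adjusted p = 0.00207), and with WT Smarcc2 +1.02 ± 0.21 (adjusted p = 0.0117). The add-back call was lost with the top 50000 summits (+0.55) and without the first WT library with KCl (+0.92). The WT add-back ranks were 31568 and 20713 without and 41549 and 54616 with KCl, all above the knockout library of the same state that ranked best. In Arid1b 5 of 51 sites fell and 1 rose, among them the 90.09 kb site (−0.80 ± 0.18, adjusted p = 0.0135; WT add-back +0.85 ± 0.18, adjusted p = 0.013). Smarcb1 had 2 rises and no fall of 25, Smarcd1 1 rise of 22 and Arid1a 2 falls and 1 rise of 23. No tested site of Smarca2, Smarcd3 or Smarce1 was called.

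**Figure D3:**
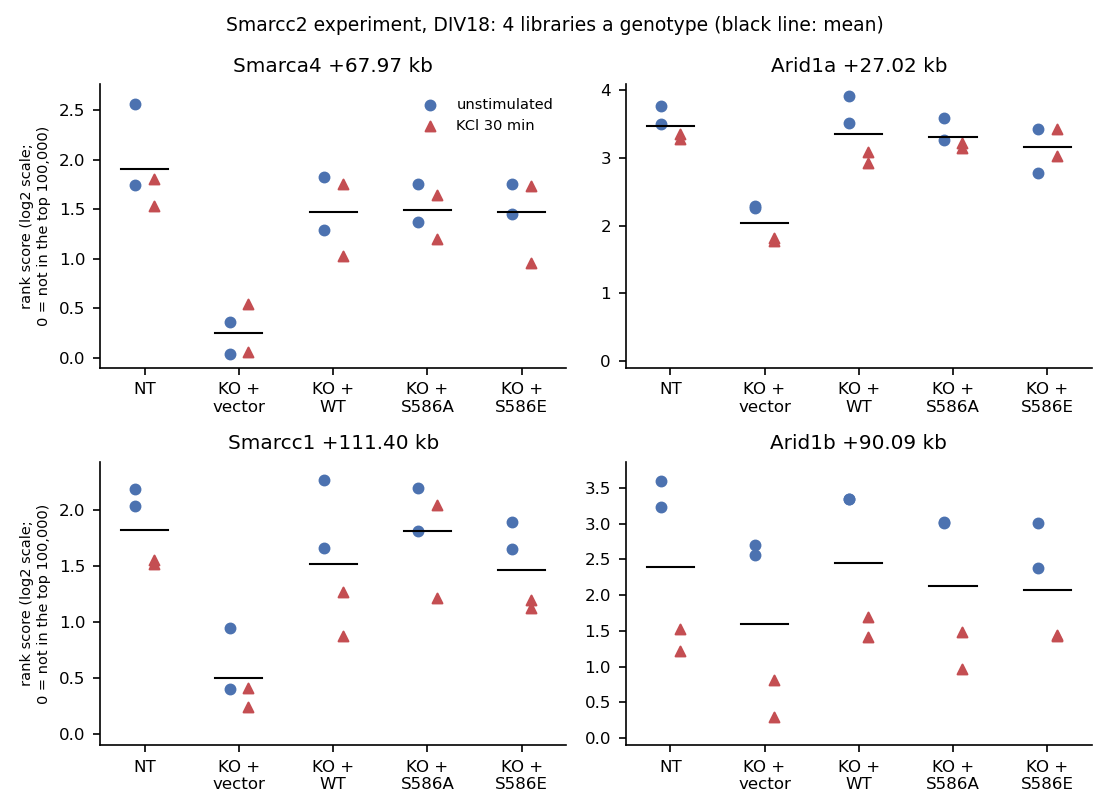
Rank score (vertical axis, log2 units; 0 is outside the top 100000) in the 20 Smarcc2 libraries, by genotype, at 4 member sites, 1 a gene, that were lower in the knockout and higher with WT Smarcc2. Points are libraries without (circles) and with KCl (triangles) and black lines are means of 4 libraries. At Arid1a +27.02 kb every knockout point with vector lies below every point of the other 4 genotypes.

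Marker promoters differed somewhat between these genotypes: summed scores of 6 excitatory neuron promoters were 14.2 to 15.9 with vector, 12.9 to 14.4 in NT and 11.96 to 13.98 with WT Smarcc2. Summed scores of 5 astrocyte promoters were 4.88 to 6.92, 4.30 to 5.85 and 6.21 to 8.30, with Gja1 at 0 in every NT and vector library. Their part in the site changes was not tested.

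Alanine and glutamate substitutions are commonly used to prevent and to mimic phosphorylation of a serine. S586E libraries differed from S586A libraries at 1 of 226 member sites, lower by 0.19 ± 0.04 (SE, adjusted p = 0.0493). Over all sites 0.387% were higher and 0.103% lower. The site lay 48.50 kb past the Smarce1 start, where the 4 S586A ranks were 79910, 74036, 151686 and 107442 and all 4 S586E ranks were beyond 100000. The call was lost in 11 of 16 other settings. No member promoter was called, and none had an unadjusted p under 0.05, where 0.169% of promoter sites were higher and 0.0445% lower. The differences at the ATPase promoters were 0.30 ± 0.19 for Smarca4 and −0.32 ± 0.42 for Smarca2 (SE), errors that leave room for changes in either gene.

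At DIV18 KCl for 30 min lowered 77 of 226 member sites and raised 19, against 23.6% and 16.8% of all sites. The members' median change was −0.13 and that of all sites −0.04. Among promoters Smarca2 rose and Smarcd1 and Smarcd3 fell, where 28.2% of promoter sites rose and 14.3% fell. The 10 unstimulated libraries ranked the Smarcd1 promoter between 4864 and 9828, and the 10 KCl libraries between 6491 and 13509. Its fall was 0.52 ± 0.12 (SE, adjusted p = 0.00336), a call lost with list length as a covariate. The Smarcd3 fall was 0.37 ± 0.12 (adjusted p = 0.0242), lost in 7 of 29 other settings, 4 of them without 1 KCl library (the second of NT or the first of WT, S586A or S586E). At the RefSeq start 22.45 kb into Smarcd3 the value was −0.22 ± 0.14 (adjusted p = 0.23). The Smarca2 rise of 0.74 ± 0.27 (adjusted p = 0.0398) was lost in 16 of 29 other settings, among them with list length as a covariate (+0.21). By gene, Smarcd1 had 12 falls and 1 rise of 22, Arid1a 11 falls and no rise of 23, Smarcc1 11 falls and 3 rises of 25 and Smarcb1 7 falls and no rise of 25. Arid1b had 18 falls and 6 rises of 51, Smarcd3 9 and 2 of 28, Smarca4 4 and 3 of 28, Smarce1 4 and 1 of 10, and Smarca2 1 fall and 3 rises of 14.

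The KCl changes of largest size at DIV18 were in Arid1b and beside Smarcb1. At Arid1b +90.09 kb the NT ranks went from 10612 and 8220 to 42929 and 34579, and over all 5 genotypes the unstimulated ranks of 8220 to 19230 did not overlap the KCl ranks of 30932 to 81378. The score fell by 1.79 ± 0.12 (SE, adjusted p = 8.43e-08). In the drug libraries at DIV7 the same site fell by 1.00 ± 0.11 with KCl in DMSO (adjusted p = 0.000136). In FHT1015 it had +0.06 ± 0.11 (adjusted p = 0.927), and the difference between these responses was +1.06 ± 0.16 (adjusted p = 0.00118). FHT1015 against DMSO without KCl had already given −1.29 ± 0.11 at this site at 30 min. The rank score has a lowest value, which limits any further fall with KCl in FHT1015. The difference therefore cannot show whether FHT1015 altered the KCl response at this site. At 25.39 kb past the Smarcb1 start, just beyond the gene (chr10:75895973-75896472), the NT ranks went from 1302 and 3190 to 6385 and 6896, a fall of 1.46 ± 0.15 over the genotypes (adjusted p = 6.39e-06). In the opposite direction the site 3.14 kb into Arid1b (chr17:4997191-4997690) went from 69748 and 28108 to 11573 and 12979 in NT, a rise of 1.29 ± 0.18 (adjusted p = 8.32e-05). It rose also in the drug libraries, by 0.89 ± 0.17 in DMSO and 0.92 ± 0.17 in FHT1015. These 3 calls kept their side of the threshold in all 29 other settings.

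Between NT neurons of DIV7 and DIV18, 58 of 201 member sites were higher at DIV18 and 40 lower, against 29.7% and 21.8% of all sites. Day and experiment cannot be told apart here. Of the promoters 3 were lower, Smarca2 (−1.33 ± 0.16, adjusted p = 0.000935), Smarce1 (−0.66 ± 0.19) and Arid1a (−0.56 ± 0.15), and none higher, where 17.6% of promoter sites were lower and 28.7% higher. The promoter sites of Arid1b (+0.003 ± 0.15) and Smarcd3 (−0.52 ± 0.27) were not called. Sites at the RefSeq starts of these genes were called lower: Arid1b +0.69 kb (−1.35 ± 0.24, limma adjusted p = 0.00425) and Smarcd3 +22.45 kb (−0.52 ± 0.18, limma adjusted p = 0.0488). Leaving out 1 library ended the Smarce1 call in 5 of 8 fits (all but the first unstimulated or second KCl library at DIV18 and the first unstimulated one at DIV7). It ended the Arid1a call in 3 (the first KCl library at DIV18, and the first unstimulated or second KCl library at DIV7) and the Smarca2 call in none. The Smarca2 promoter ranked 90, 70, 83 and 97 at DIV7 and 221, 250, 210 and 174 at DIV18. The 8 DMSO libraries of the drug experiment, also at DIV7 but not part of this test, ranked it between 108 and 493. The site 195.58 kb into Arid1b (chr17:5189623-5190122) was higher, at ranks of 3217 to 5285 against 17632 to 26574 (+2.27 ± 0.18, adjusted p = 0.000199). The site 142.87 kb into Smarca2 (chr19:26747694-26748193) was lower, at 19942 to 43644 against 5480 to 6881 (−2.10 ± 0.25, adjusted p = 0.000862), and so was the site 316.16 kb into Arid1b (−2.10 ± 0.14). In each the ranks of the 2 days did not overlap. With list length as a covariate no member site was called, and the Smarce1 promoter value turned to +0.78.

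Cell type markers moved with day as well. Summed scores of 5 astrocyte promoters were 1.25 to 2.18 at DIV7 and 4.30 to 5.85 at DIV18, with Gfap, Gja1 and S100b at 0 in all 4 DIV7 libraries and Gja1 in all 4 DIV18 libraries. Summed scores of 7 inhibitory neuron promoters were 6.76 to 9.09 and 0.00 to 1.91, with Gad2, Slc32a1, Dlx1 and Lhx6 at 0 in all 4 DIV18 libraries. Their part in the member changes was not tested.

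**Figure D4:**
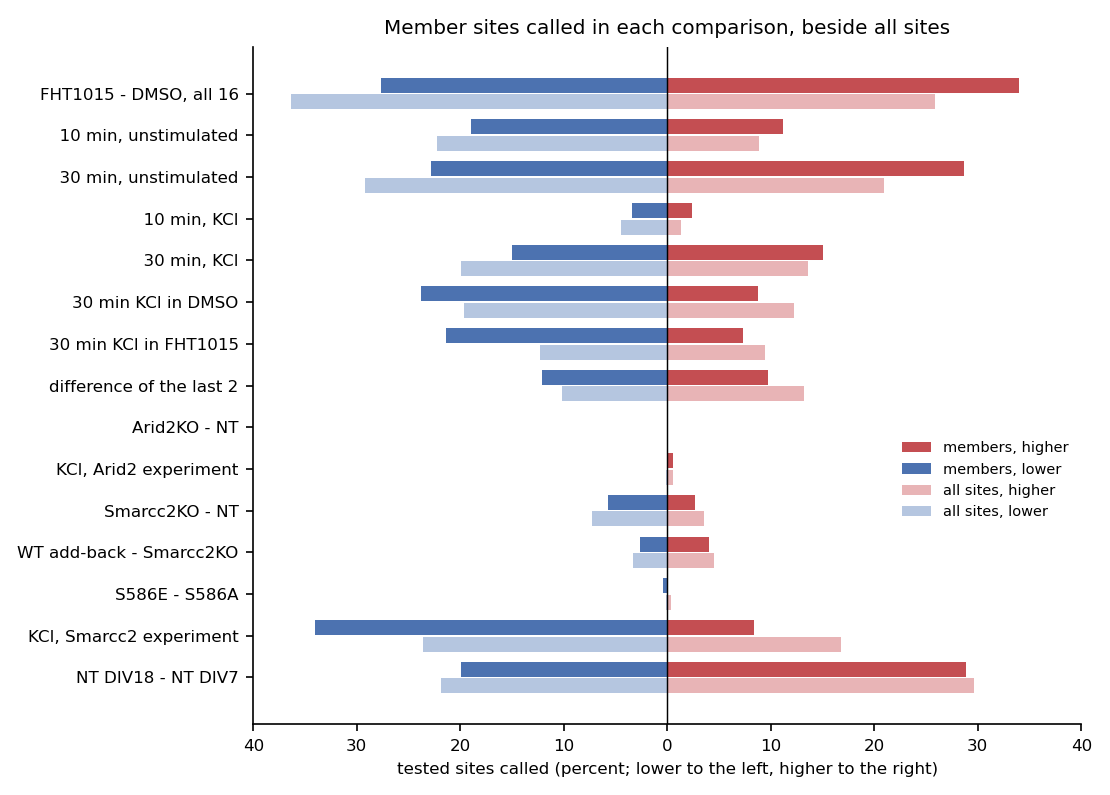
Percent of tested sites called higher (right of 0) and lower (left of 0) in each of 15 comparisons, for the members (dark bars) and all sites (pale bars). With KCl at DIV18 the lower calls reach 34.1% of member sites beside 23.6% of all sites. Arid2 knockout has no member bar.

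Set beside the members, 19 promoters of the other subunits were tested. In the Smarcc2 knockout 0 rose and 1 fell, against 2.55% and 0.827% of promoter sites. With the WT add-back 2 rose and 1 fell, against 1.13% and 2.31%. With KCl at DIV18 2 rose and 4 fell, against 28.2% and 14.3%. At DIV18 against DIV7 4 were higher and 7 lower, against 28.7% and 17.6%. Over all sites 3.51% rose and 7.3% fell in the Smarcc2 knockout. Of the 461 tested sites of the other subunits 19 rose and 14 fell there, where the members had 6 and 13 of 226. This difference between the lists was not tested.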

How the data were processed

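ATAC-seq peak lists of 44 libraries in 22 groups of 2 were analysed. Per the submitters' processing notes, the tools were Bowtie2 and MACS2, with FastQC and Trim Galore for reads and Picard, SAMtools and bedtools for alignments and regions, on build mm10, with no versions and no parameters given in the sources used here. Each library has its own deposited list. The deposited −log10 p of a summit was the ranking value, and the deposited −log10 q was not used. The deposited fold enrichment (ratio over the caller's background) gave the same ranks, and the deposited score column, 10 times the −log10 p, was not used. Depth is unknown from these lists, so no counting intervals are given, and list length stands in as a covariate.

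Summits on 19 autosomes were ranked within each library, the top 100000 of all libraries were merged into sites of 500 bp, and the best rank in a site was written as a rank score. Scores were fitted per experiment with limma 3.58.1 (R 4.3.3) on sites held by at least 2 libraries, and p-values were adjusted over all of those sites (Benjamini-Hochberg). The fitting code was tested on simulated data. Sites were given to the nearest member within 50 kb of its gene body. A promoter site is the one nearest the 5′ end, within 1 kb. For a gene without a given strand, such as Smarce1, both gene ends were tried. The end whose site had the higher mean score over all libraries was taken as the 5′ end. Named sites are the promoters, each member's site of highest mean score otherwise, and up to 3 called member sites of largest change per comparison; others are said to be chosen after their values were seen, or follow a named site into another comparison. Some sites that this rule names are not reported here. The members and lists were chosen with earlier results of these data known. Alternatives changed the number of summits kept, the filter, the matching distance, intervals for summits, list length as a covariate, a replicate block and each library left out. Promoter sequences come from RefSeq (GRCm38.p6). Python 3.11.15, pandas 2.3.3 and matplotlib 3.10.9 were used.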

Additional observations from a re-analysis of the deposited data

Results flagged for a closer look

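Of the 45 member sites at which limma called a difference between FHT1015 and DMSO in the response to 30 min of KCl, the 3 of largest absolute change are given. The 45 include a site at the lowest rank score in FHT1015, Smarcd3 +12.35 kb, where a fall with KCl could not be seen. The difference was −1.44 at the Abcf2 start 47.49 kb from the Smarcd3 start, +1.35 at the Pigv site 96.18 kb past the Arid1a start and +1.48 at the site 290.64 kb into Arid1b. The first 2 kept their call in all 17 other settings. The third was lost in 2 of 17, with list length as a covariate and with the top 50000 summits. Without any 1 of the 8 libraries all 3 calls held, with values of −1.71 to −1.17, 1.15 to 1.56 and 1.23 to 1.72. Groups of 2 libraries are too small for a test of whether 1 library lies apart from the rest of its group.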

How the results depend on the processing

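Member calls over all sites were recomputed under each alternative. With the top 50000 summits the calls were 67 for FHT1015, 25 and 50 at 10 and 30 min, 34 at 30 min with KCl, 41 and 34 for KCl in DMSO and FHT1015, 21 for their difference, 2 for KCl at DIV7, 11 and 8 for the Smarcc2 knockout and WT add-back, 0 for S586E against S586A, 61 for KCl at DIV18 and 54 for day. With list length as a covariate they were 5 for FHT1015, 10 and 13 at 10 and 30 min, 2 and 10 with KCl, 0 for KCl at DIV7, 7 for the add-back, 0 for S586E against S586A, 52 for KCl at DIV18 and 0 for day. The FHT1015 and day counts so depend on whether list length enters the fit. With all deposited summits they were 89 for KCl in FHT1015, 2 for KCl at DIV7, 35 and 23 for the knockout and add-back, and 0 for S586E against S586A. By intervals they were 4 for FHT1015 at 10 min with KCl and 0 for S586E against S586A. With sites held by 4 libraries they were 4 for KCl at DIV7 and 0 for S586E against S586A, and with sites held by 1 library 0 for KCl at DIV7.

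Leaving out 1 library gave 119 to 126 calls for FHT1015, 44 to 50 and 77 to 87 at 10 and 30 min, 3 to 7 and 34 to 51 with KCl, 49 to 55 and 38 to 55 for KCl in DMSO and FHT1015, and 35 to 47 for their difference. It gave 0 for Arid2 knockout and for KCl at DIV7, 11 to 28 for the Smarcc2 knockout, 6 to 14 for the add-back, 0 to 4 for S586E against S586A, 80 to 104 for KCl at DIV18 and 73 to 88 for day.

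Among named sites 4 values turned sign: by intervals Smarca4 −0.60 kb with FHT1015 at 10 min (−0.16), the Arid1b promoter with FHT1015 at 30 min with KCl (−0.090) and with KCl in DMSO (+0.27), and with list length the Smarce1 promoter by day (+0.78). The cause was not tested. The labels do not say what a replicate number marks, and not every correlation of same-numbered libraries passed 0.1, so numbers were not used as pairs. The correlations ranged from −0.11 to 0.12 in the drug experiment, but were positive in all 45 pairs of groups in the Smarcc2 experiment (0.030 to 0.205, 26 over 0.1). With a replicate block the calls were 127 for FHT1015, 24 for the Smarcc2 knockout, 17 for the add-back, 102 for KCl at DIV18 and 0 for S586E against S586A.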
